A study of Mus musculus with 38 samples.

Results

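The 48 genes described here encode proteins that make ribosomes: RNA polymerase I with its initiation factors, the nucleolar proteins that modify and cut the ribosomal RNA (rRNA) precursor, and the factors that assemble it into subunits. They were taken from a fixed list of symbols, which was chosen with earlier results of these data known. All 48 were found among the 11441 unique symbols of the main expression files and among the 20650 of the inhibitor files. In the plasma cell files 47 were listed by name, and the last, EBNA1BP2, had lost letters of its symbol there. The study follows mouse B cells as they become antibody-secreting cells under Blimp1, a transcriptional repressor encoded by PRDM1. Blimp1-deficient pre-plasmablasts were Blimp1(GFP/fl) Cd23(Cre/+), carrying a floxed Blimp1 allele, a GFP reporter allele of Blimp1 and a Cre recombinase driven by the B cell gene Cd23, and were sorted as CD138– GFP+ CD22hi. Activated B cells were sorted as CD138– GFP–, control pre-plasmablasts as CD138– GFP+, and plasmablasts as CD138+ GFP+, all from Blimp1(GFP/+) Cd23(Cre/+) mice, so that each of these groups carried the Cre and 1 reporter allele as well. All of these cells had 4 days of culture with lipopolysaccharide (LPS), a bacterial product that activates B cells. The knockout and its control pre-plasmablasts differ in both genotype and the CD22 gate, and those effects cannot be told apart. In a second experiment Blimp1(GFP/+) pre-plasmablasts (CD138– GFP+) of the same culture length were treated with GSK343, which blocks the histone methyltransferase EZH2, or with DMSO as vehicle. Blimp1(GFP/+) plasma cells (CD28+ CD138+ GFP+ Lin-) were taken directly from mice. All groups were on the C57BL/6 background, and each had 2 libraries.

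A dividing or secreting cell needs many ribosomes. RNA polymerase I copies the rRNA genes in the nucleolus, small nucleolar ribonucleoproteins (snoRNPs) of the box C/D kind methylate the precursor and those of the box H/ACA kind convert uridines to pseudouridine, and the small-subunit processome folds and cleaves it. Separate sets of factors then mature the small (40S) and large (60S) subunit precursors. Many of these genes are textbook targets of the transcription factor MYC, and lymphocytes raise them when they are activated.

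Gene symbols are in capitals, as in the files. Levels are in RPKM, which divides a gene's reads by its length and by the size of the library, so that genes of different length can be compared. Polyadenylated RNA was measured, so the values are of mRNA and not of rRNA. The 8 cultured libraries were tested together over 10473 genes with limma on log2(RPKM + 1), and the 4 inhibitor libraries apart over 9479 genes. A gene counts as called where its Benjamini-Hochberg adjusted p, taken over every gene in the fit, was below 0.05. The libraries of the 4 main groups came in 2 numbered series, 1 library of each group in each. Libraries of the same series deviated together, so a fit with the series as a block is given beside a count that it changes. Between groups the median of all genes also moved, to -0.18 on the log2 scale for plasmablasts over activated B cells, and a median-of-ratios scaling that removes this shift is given where it changes a count. Levels of 2 marker genes are given for the labelled groups. SDC1, which encodes CD138, lay at 32.7 and 30.5 RPKM in plasmablasts and 779.7 and 752.6 RPKM in plasma cells, against 2.19 and 2.12 RPKM in control pre-plasmablasts. These groups were sorted on CD138, so SDC1 is no independent check of their labels. PRDM1 was at 198.5 and 171 RPKM in Blimp1-deficient pre-plasmablasts, against 428.8 and 326.7 RPKM in control pre-plasmablasts. This value covers the whole gene and cannot show the deleted part.

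Promoters of members that the results turn on show what they hold in common and where they differ. Of the 48 members, 41 had an entry in the RefSeq promoter table (build GRCm38.p6, 250 bases before to 50 after the start). NPM1, FBL, NOL6, BOP1, WDR36, RRP12 and RRS1 had none. Stretches below end at the last base before the start, and capitals mark the E-box CACGTG, which MYC and related factors can bind, and CCGGAAG or its reverse complement, the core of an ETS factor site. RRN3 (chr16:13780449-13780698, plus strand) is shown because it alone held a pair of E-boxes, 215 and 48 bases before its start, and NOP2 (chr6:125131783-125131882, plus strand) because it holds both motifs close together. GAR1 (chr3:129831397-129831496, minus strand), POLR1C (chr17:46248046-46248145, minus strand), RRP1B (chr17:32036062-32036161, plus strand, the upstream of 2 starts) and DKC1 (chrX:75095754-75095853, plus strand) are the 4 members with an entry whose called fall in plasmablasts over activated B cells, described further on, was largest. GAR1 and POLR1C have the ETS core 43 and 42 bases before their start, and RRP1B and DKC1 hold neither motif. GNL3 (chr14:31019132-31019231, minus strand) is shown because it was the 1 member called higher there, and it holds neither motif either.
RRN3: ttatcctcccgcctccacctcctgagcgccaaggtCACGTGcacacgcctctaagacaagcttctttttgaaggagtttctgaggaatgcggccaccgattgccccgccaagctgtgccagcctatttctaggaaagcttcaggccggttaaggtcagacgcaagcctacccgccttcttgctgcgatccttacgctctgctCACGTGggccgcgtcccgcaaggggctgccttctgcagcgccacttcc
NOP2: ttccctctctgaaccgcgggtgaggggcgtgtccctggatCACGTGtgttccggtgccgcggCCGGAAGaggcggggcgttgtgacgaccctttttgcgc
GAR1: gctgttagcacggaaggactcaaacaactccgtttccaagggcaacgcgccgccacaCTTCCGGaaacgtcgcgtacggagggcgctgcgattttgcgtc
POLR1C: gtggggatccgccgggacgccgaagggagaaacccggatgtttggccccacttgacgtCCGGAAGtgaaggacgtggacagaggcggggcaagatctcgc
RRP1B: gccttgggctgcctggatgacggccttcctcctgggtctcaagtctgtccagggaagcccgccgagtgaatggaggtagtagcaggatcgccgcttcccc
DKC1: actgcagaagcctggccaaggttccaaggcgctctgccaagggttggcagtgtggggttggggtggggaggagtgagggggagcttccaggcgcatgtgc
GNL3: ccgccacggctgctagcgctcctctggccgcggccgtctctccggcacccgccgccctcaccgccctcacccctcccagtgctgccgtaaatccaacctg

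The E-box, searched as CACGTG, which reads the same on both strands, was in 8 of the 41 windows (19.5%), against 12.5% of the 7281 tested genes with an entry and 8.09% of all 27025 genes in the table. Its holders were NOP2, PES1, PNO1, RRN3, TSR1, UTP18, UTP20 and WDR43. The ETS core, searched as CCGGAAG and CTTCCGG, was in 14 of 41 (34.1%), against 21.9% of tested genes and 9.93% of all genes. The GC box GGCGGG or CCCGCC was in 27 of 41 (65.9%), close to the 69.5% of tested genes. TCTCGCG or CGCGAGA was in 7 of 41 (17.1%), against 6.52% of tested genes. The ETS core was in 8 of the 24 members called lower in plasmablasts over activated B cells that had an entry (33.3%), and in 6 of the 16 that were not called (37.5%), among them NOLC1. The E-box was in 4 of these 24 (16.7%) and 4 of these 16 (25%). Neither motif was in 13 of the 24 (54.2%) and 9 of the 16 (56.3%), so that lacking both did not set GNL3 apart. These are counts of letters in a window and show no binding.

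Plasmablasts were compared with activated B cells to describe the whole span of differentiation in culture. Members of every role were called lower in plasmablasts, and of the called members GAR1, of the box H/ACA snoRNP, and the RNA polymerase I subunit POLR1C had the largest falls. Of the 48 members, 28 were called lower (58.3%) and 1 higher, against 33.9% of all genes tested called lower and 21.3% higher. With the series block 39 members were lower (81.3%, against 47.4% of all genes). Libraries of the groups did not overlap for 37 members that were lower (47.9% of all genes) and 1 that was higher (29.2%), and 43 members were lower in both series (57.5% of all genes). With median-of-ratios scaling 18 were lower (37.5%, against 25.1%). The median log2 fold change of the members was -0.55, and that of all genes -0.18. Without the first activated B cell library 17 members were called lower (35.4%, against 26.1% of all genes).

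In RNA polymerase I and its factors, 5 of 7 genes were called lower in plasmablasts. POLR1C, a subunit shared with RNA polymerase III, lay at 34.5 and 40.1 RPKM in plasmablasts, against 86.6 and 93.4 RPKM in activated B cells. The groups lie far apart, with a log2 fold change of -1.25 ± 0.10 (SE, adjusted p = 8.83e-05). POLR1E, a subunit that helps recruit the enzyme, was at 5.81 and 5.79 RPKM in plasmablasts, against 12.8 and 11.7 RPKM in activated B cells (-0.96 ± 0.10, adjusted p = 0.000279). UBTF, the architectural factor that opens rRNA gene chromatin, was at 55.4 and 50.5 RPKM in plasmablasts, against 79.8 and 73.5 RPKM in activated B cells (-0.53 ± 0.10, adjusted p = 0.00494). POLR1A, the largest subunit, had 23.3 and 21.7 RPKM in plasmablasts, against 33.3 and 30.8 RPKM in activated B cells. Its log2 fold change was -0.49 ± 0.12 (adjusted p = 0.0107). The neighbouring catalytic subunit POLR1B had 9.57 and 9.01 RPKM in plasmablasts, against 12.6 and 12.1 RPKM in activated B cells (-0.38 ± 0.13, adjusted p = 0.0455). With median-of-ratios scaling the calls of POLR1A and POLR1B were lost (adjusted p = 0.0693 and 0.25). Leaving out the first activated B cell library or the second plasmablast library also ended the call of POLR1A (adjusted p = 0.0646 and 0.0597), and leaving out any library of activated B cells, plasmablasts or pre-plasmablasts ended that of POLR1B (adjusted p of 0.0526 to 0.162). The initiation factor RRN3 and the promoter-selectivity subunit TAF1D had log2 fold changes of -0.35 and -0.32 and were not called; with the series block both were lower.

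The enzymes that modify rRNA were the role groups with the lowest medians. Of the 4 proteins of box H/ACA snoRNPs, 3 were called lower in plasmablasts, with a group median of -1.09. GAR1 was at 23.7 and 36.3 RPKM in plasmablasts, against 64.6 and 92.9 RPKM in activated B cells (-1.37 ± 0.29, adjusted p = 0.00646). DKC1, dyskerin, the pseudouridine synthase itself, was at 12.2 and 19.0 RPKM in plasmablasts, against 31.7 and 39.0 RPKM in activated B cells (-1.15 ± 0.32, adjusted p = 0.0214). NHP2 was at 89.5 and 83.6 RPKM in plasmablasts, against 172.9 and 150.8 RPKM in activated B cells. In all 3 genes the groups were apart. The call of DKC1 was lost without the second activated B cell library or the first plasmablast library (adjusted p = 0.0978 and 0.112). NOP10, another partner, varied widely between the series, with 18.2 and 51.9 RPKM in plasmablasts and 40.7 and 99.7 RPKM in activated B cells, and was called with the series block only. Of the box C/D proteins, FBL, the rRNA methyltransferase fibrillarin, was at 3.48 and 5.57 RPKM in plasmablasts, against 8.69 and 12.2 RPKM in activated B cells (-1.06 ± 0.37, adjusted p = 0.046). Its call was lost with median-of-ratios scaling (adjusted p = 0.0822), and when any 1 library of these groups was left out (adjusted p of 0.0541 to 0.204). The scaffold protein NOP56 was at 41.5 and 42.4 RPKM in plasmablasts, against 72.1 and 63.2 RPKM in activated B cells (-0.68 ± 0.11, adjusted p = 0.00225). Its partner NOP58 was not called, at 68.5 and 70.9 RPKM in plasmablasts, against 74.5 and 82.5 RPKM in activated B cells.

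Among nucleolar organisers the genes went separate ways. Nucleolin, encoded by NCL, was at 129.2 and 109.6 RPKM in plasmablasts, against 200.2 and 158.8 RPKM in activated B cells (-0.58 ± 0.20, adjusted p = 0.0467), a call that median-of-ratios scaling ended (adjusted p = 0.16). It was also lost without the first activated B cell library, either plasmablast library or either pre-plasmablast library (adjusted p of 0.0634 to 0.211). NPM1, the abundant nucleolar chaperone nucleophosmin, was at 83.2 and 173.6 RPKM in plasmablasts, against 234.3 and 445.2 RPKM in activated B cells. Its log2 fold change of -1.42 ± 0.56 was not called (adjusted p = 0.0697), and in both groups the library of the second series was well above that of the first. With the series block the adjusted p was 1.51e-05, and it was called without the first or the second pre-plasmablast library (adjusted p = 0.0464 and 0.0463). Reads of NPM1 could also be shared with its processed pseudogenes. The helicase DDX21 (-0.42) was not called either, though its groups were apart, and was lower with the series block (adjusted p = 7.12e-05). The snoRNP chaperone NOLC1 (-0.02) was not called with or without the block. GNL3, which encodes the nucleolar GTPase nucleostemin, was the 1 member that rose. It stood at 55.8 and 59.5 RPKM in plasmablasts, against 34.9 and 40.5 RPKM in activated B cells (0.60 ± 0.13, adjusted p = 0.00733).

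Factors of the subunit precursors followed. In the small-subunit processome 6 of 12 genes were called lower in plasmablasts, with a median of -0.44: RRP9, UTP15, HEATR1, NOL6, UTP20 and DDX10. HEATR1, which links rRNA transcription to processing, was at 14.5 and 14.9 RPKM in plasmablasts, against 23.7 and 23.3 RPKM in activated B cells (-0.64 ± 0.10, adjusted p = 0.00153). WDR3, WDR36, WDR43, WDR75 and UTP18 lay between -0.45 and -0.09 without a call, and NOP14 lay at 0.10. Of 5 genes of 40S maturation 3 were lower, namely NOB1, the nuclease of the last small-subunit cut (-0.92), the export factor RRP12 (-0.74) and PNO1 (-0.54), while TSR1 (-0.26) and BYSL (0.12) were not called. Of 12 genes of 60S assembly 8 were lower: RRP1B, NOP16, NIP7, WDR12, PES1, RRS1, MRTO4 and the rRNA methyltransferase NOP2. With median-of-ratios scaling the calls of NIP7, NOP2, PES1 and RRS1 were lost, so that 4 of the 12 remained (adjusted p of 0.0671 to 0.129), and so were those of PNO1 (adjusted p = 0.0826) and DDX10 (0.129). RRP1B was at 8.17 and 6.34 RPKM in plasmablasts, against 18.5 and 16.1 RPKM in activated B cells (-1.16 ± 0.19, adjusted p = 0.00225). PES1, BOP1 and WDR12 form 1 complex, yet BOP1 was at 62.0 and 58.1 RPKM in plasmablasts, against 61.5 and 62.1 RPKM in activated B cells, with overlapping groups. Its log2 fold change was -0.04, with a 95% interval of -0.25 to 0.16. With median-of-ratios scaling BOP1 lay at 0.15, and NOP58 (0.03), NOLC1 (0.18) and WDR75 (0.10) also changed sign without a call. DDX18, DDX56 and EBNA1BP2 lay between -0.44 and -0.19 and were not called. With the series block DDX18 and EBNA1BP2 were lower (adjusted p = 0.00543 and 0.00399). The block gave 9 of the 12 processome genes, 4 of the 5 of 40S maturation and 10 of the 12 of 60S assembly as lower.

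**Figure D1:**
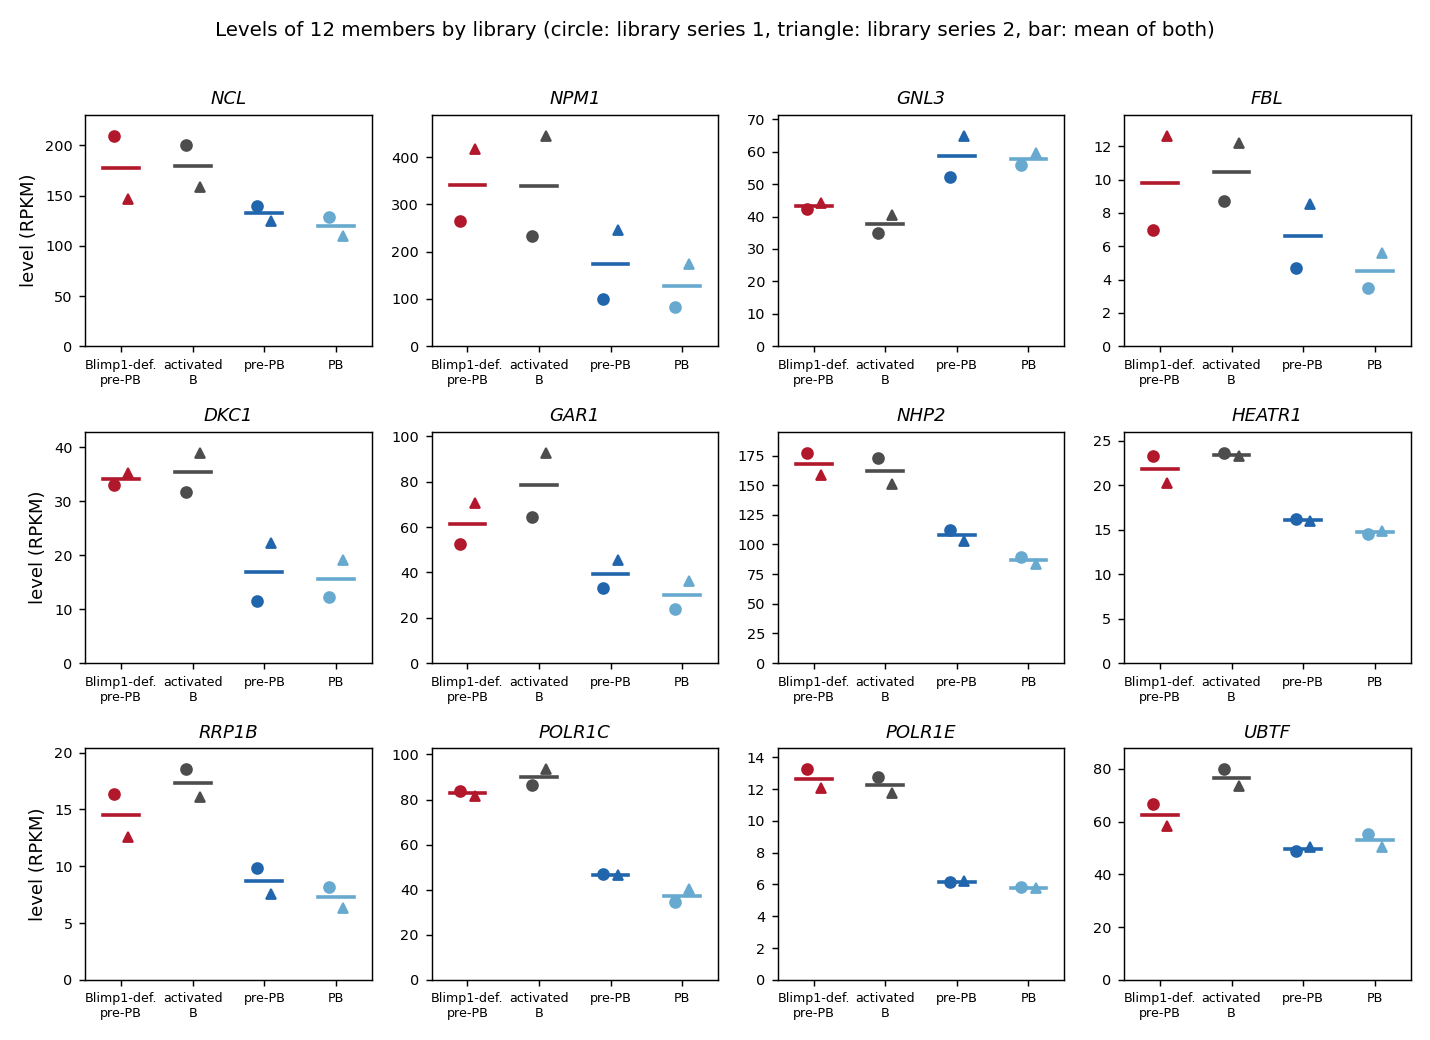
RPKM (linear axes from 0) of 12 members in Blimp1-deficient pre-plasmablasts, activated B cells, pre-plasmablasts (pre-PB) and plasmablasts (PB); points are single libraries, with circles for the first and triangles for the second library series, and bars are the means. POLR1C lies at 81.6 to 93.4 RPKM in Blimp1-deficient pre-plasmablasts and activated B cells and at 34.5 to 47.0 RPKM in the other groups, whereas GNL3 is lowest in activated B cells.

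POLR1C, POLR1E and 3 box H/ACA proteins were also lower in pre-plasmablasts than in activated B cells. In pre-plasmablasts 16 members were called lower than in activated B cells (33.3%) and GNL3 higher, against 28.0% of all genes tested called lower and 20.2% higher, so that the members' share lay near that of all genes. With the series block 36 were lower (75%, against 41.7%), and with median-of-ratios scaling 11 (22.9%, against 21.5%). With both together 25 were lower (against 33.8%). In 40 members the pre-plasmablast library was lower in both series, against 53.5% of all genes. The members' median was -0.31, and that of all genes -0.12. Members called lower were in RNA polymerase I (4 of 7), H/ACA (3 of 4), the small-subunit processome (5 of 12), 60S assembly (2 of 12), C/D (1 of 3) and 40S maturation (1 of 5). With median-of-ratios scaling POLR1A, NOP16, NOL6, UTP15 and UTP20 lost their calls, and NOP14 became called higher. Without the first activated B cell library 8 were called lower, a share (16.7%) below the 19.4% of all genes. Without the second it was 10 (20.8%, against 19.9%), and without the second pre-plasmablast library also 10 (against 21.8%).

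POLR1C was at 47.0 and 46.5 RPKM in pre-plasmablasts, against 86.6 and 93.4 RPKM in activated B cells (-0.93 ± 0.10, adjusted p = 0.000423). DKC1 was at 11.4 and 22.2 RPKM in pre-plasmablasts, against 31.7 and 39.0 RPKM in activated B cells (-1.09 ± 0.32, adjusted p = 0.0295). GAR1 was at 33.1 and 45.3 RPKM in pre-plasmablasts, against 64.6 and 92.9 RPKM in activated B cells (-0.98 ± 0.29, adjusted p = 0.0284). In each of these genes both pre-plasmablast libraries lay below both libraries of activated B cells. The call of DKC1 was lost without either library of activated B cells or of Blimp1-deficient cells, or without the first pre-plasmablast library (adjusted p of 0.0502 to 0.127). That of GAR1 was lost without the second activated B cell library or the first pre-plasmablast library (adjusted p = 0.14 and 0.135). GNL3 was at 52.2 and 64.9 RPKM in pre-plasmablasts, against 34.9 and 40.5 RPKM in activated B cells (0.62 ± 0.13, adjusted p = 0.00792), and was higher in both series. Without the first activated B cell library its adjusted p was 0.0518. NOP14, another processome gene, was higher with the series block (0.28, adjusted p = 0.00446).

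Between plasmablasts and pre-plasmablasts no member passed the test in limma, and 8 had an unadjusted p below 0.05; of all genes 1.62% were called lower and 0.716% higher. With the series block 15 members were lower (31.3%, against 13.3% of all genes) and none higher, and NOP16, NOB1, NHP2, GAR1 and POLR1C were among these 15. With median-of-ratios scaling none was called lower (against 1.33%), and with scaling and block together 12 were (25%, against 9.49%). In 40 of the 48 genes the plasmablast library was lower in both series, against 45.0% of all genes. It was higher in both for 2 members, against 29.5%. The libraries did not overlap for 20 members that were lower (26.4% of all genes) and for UBTF, which was higher (15.8%). NOP16 was at 20.8 and 18.4 RPKM in plasmablasts, against 29.0 and 24.6 RPKM in pre-plasmablasts, a log2 fold change of -0.43 ± 0.13 (adjusted p = 0.157, and 0.00484 with the series block). The members' median was -0.18 and that of all genes -0.04.

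Blimp1-deficient pre-plasmablasts were set against control pre-plasmablasts, from which they differ in both genotype and the CD22 gate. The words "without Blimp1" name these cells here and not a cause. Members of every role but the nucleolar organisers were called higher without Blimp1. Of 48, 21 were called higher (43.8%) and 1, GNL3, lower, against 24.4% of all genes tested called higher and 16.1% lower. With the series block 39 were higher (81.3%, against 40.4%) and 1 lower (against 24.9%). Libraries of the groups did not overlap for 32 members that were higher (41.3% of all genes) and 2 that were lower, GNL3 and NOP14 (26.3%). The count depended on scaling: with median-of-ratios scaling 9 were higher (18.8%), close to the 18.5% of all genes, and with that scaling and the series block together 32 were higher (66.7%, against 31.9%) and 3 lower (against 30.7%). The median was 0.41 for members and 0.12 for all genes, and 0.30 and 0.02 after that scaling. Single libraries also decided the count. Without the first Blimp1-deficient library 5 were called higher (10.4%), a share below the 16.0% of all genes, and without the second control library 7 (14.6%, against 18.1%). In a fit of these 2 groups alone 9 were (18.8%, against 18.3%). In these 3 fits, as with scaling alone, the members' share was thus near or below that of all genes. When any other library of the main groups was left out it was 31.2% to 37.5%, against 17.0% to 22.3% of all genes.

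Of the 7 RNA polymerase I genes, 4 were called higher without Blimp1. POLR1E was at 13.2 and 12.04 RPKM in Blimp1-deficient pre-plasmablasts, against 6.13 and 6.20 RPKM in control pre-plasmablasts (0.93 ± 0.10, adjusted p = 0.000628). POLR1C was at 83.9 and 81.6 RPKM in Blimp1-deficient cells, against 47.0 and 46.5 RPKM in control cells (0.81 ± 0.10, adjusted p = 0.00107). POLR1A was at 44.4 and 37.0 RPKM in Blimp1-deficient cells, against 25.2 and 23.4 RPKM in control cells (0.72 ± 0.12, adjusted p = 0.00342). These 3 calls held with median-of-ratios scaling and when any 1 library was left out. That of UBTF did not, at 66.8 and 58.3 RPKM in Blimp1-deficient cells and 48.7 and 50.3 RPKM in control cells (0.33 ± 0.10, adjusted p = 0.043, 0.153 after scaling and 0.10 in the fit of these 2 groups alone), and its call was lost when any library of the fit but the second Blimp1-deficient one was left out (adjusted p of 0.0595 to 0.197). POLR1B, TAF1D and RRN3 lay between 0.30 and 0.36 without a call, and were higher with the series block. Without the second Blimp1-deficient library POLR1B lay at 0.50.

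DKC1 was at 32.9 and 35.2 RPKM in Blimp1-deficient pre-plasmablasts, against 11.4 and 22.2 RPKM in control pre-plasmablasts (1.05 ± 0.32, adjusted p = 0.0399). The 2 control libraries differed widely, both lay below both deficient ones, and the call was lost with median-of-ratios scaling (adjusted p = 0.0576) and in the fit of these 2 groups alone (0.0599). It was also lost without either library of Blimp1-deficient pre-plasmablasts or of activated B cells, or without the first control library (adjusted p of 0.0569 to 0.151). NHP2 was also higher (0.64 ± 0.11, adjusted p = 0.00452), while GAR1 (0.64) and NOP10 (0.98) passed with the series block only. NOP56 was at 68.7 and 60.2 RPKM in Blimp1-deficient cells, against 50.0 and 45.2 RPKM in control cells (0.43 ± 0.11, adjusted p = 0.022), and lost its call without the first Blimp1-deficient or the second control library (adjusted p = 0.116 and 0.106), with median-of-ratios scaling (0.0654) and in the fit of these 2 groups alone (0.0601). NPM1 was at 264.4 and 416.6 RPKM in Blimp1-deficient cells, against 101 and 245.2 RPKM in control cells (1.07 ± 0.56, adjusted p = 0.176, and 0.000133 with the series block). NCL (0.40) and FBL (0.50) were likewise called only with the block, with adjusted p of 0.00282 and 0.00298.

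Higher without Blimp1 were 6 of 12 processome genes (NOL6, WDR3, RRP9, HEATR1, UTP20 and UTP15), 3 of 5 of 40S maturation (NOB1, TSR1 and RRP12) and 5 of 12 of 60S assembly (RRP1B, WDR12, NOP16, NOP2 and MRTO4). Their log2 fold changes lay between 0.38 and 0.68. With median-of-ratios scaling none of the 3 genes of 40S maturation was called (adjusted p of 0.0546 to 0.0865). Of the 5 of 60S assembly 2 remained, WDR12 and NOP16 (0.0556 to 0.134 for the others), and of the 6 processome genes 3 remained, NOL6, RRP9 and HEATR1 (0.0532 to 0.0897 for the others). HEATR1 was at 23.3 and 20.3 RPKM in Blimp1-deficient cells, against 16.2 and 15.9 RPKM in control cells (0.41 ± 0.10, adjusted p = 0.0147). Its call was lost without the first Blimp1-deficient library or either control library, or in the fit of these 2 groups alone (adjusted p of 0.0569 to 0.0783). DDX10, DDX18, DDX21, EBNA1BP2, NIP7, PES1, PNO1, RRS1, WDR36 and WDR43 were not called, at 0.19 to 0.52, and were higher with the series block. A further 8 members, NOLC1, NOP14, BYSL, DDX56, WDR75, UTP18, BOP1 and NOP58, had values from -0.08 to 0.08 and no call with or without the block. Of these, BOP1 (0.07), NOP58 (0.08), UTP18 (0.05) and WDR75 (0.01) were below 0 with median-of-ratios scaling, at -0.04, -0.03, -0.06 and -0.09. GNL3 was at 42.3 and 44.2 RPKM in Blimp1-deficient cells, against 52.2 and 64.9 RPKM in control cells (-0.42 ± 0.13, adjusted p = 0.0403). Its call was lost in a fit of these 2 groups alone (adjusted p = 0.084) and held with the series block and with scaling. It was also lost when either Blimp1-deficient library, either plasmablast library or the second control library was left out, with adjusted p of 0.0624 to 0.177.

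**Figure D2:**
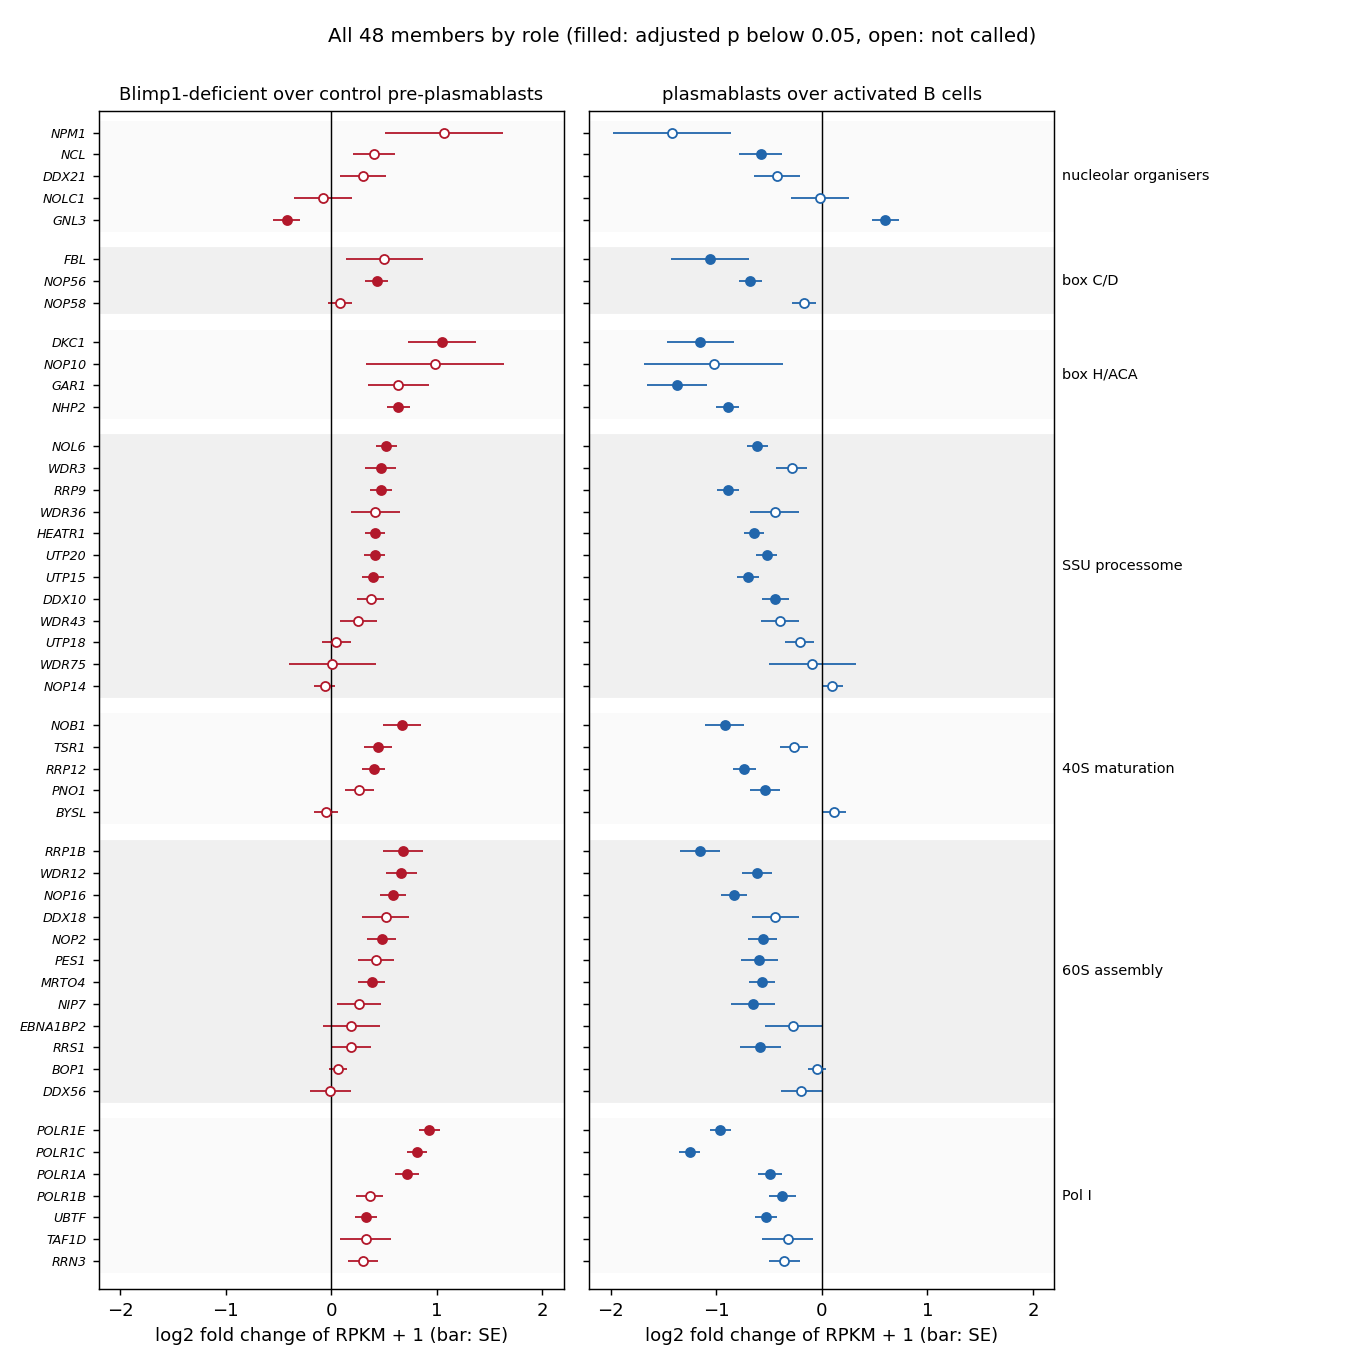
Log2 fold change of RPKM + 1 with its standard error (horizontal axis) for all 48 members, grouped by role, in Blimp1-deficient over control pre-plasmablasts (left) and plasmablasts over activated B cells (right); filled points passed the test. The left column lies mostly right of 0 and the right column mostly left of it, with GNL3 the other way in both.

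That contrast shares no library with the one of plasmablasts and activated B cells. Of the 21 members higher without Blimp1, 19 (90.5%) were also among the 28 lower in plasmablasts (67.9% of these). The matching share over all genes was not worked out, so this overlap cannot be read as particular to the members. Across the 48 members the log2 fold changes of both contrasts had a Pearson r of -0.88, and across all 10473 genes tested -0.82, a value close to that of the members. Members are not independent replicates, and same-series libraries enter both contrasts.

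Against activated B cells, Blimp1-deficient pre-plasmablasts had no member called in limma in either direction; 3 had an unadjusted p below 0.05, and of all genes tested 10.4% were called higher and 7.60% lower. The members' median was 0.04, with single genes between -0.35 (GAR1) and 0.51 (NOP10). The 95% intervals of 44 of the 48 lay within 1 log2 unit either side of 0, with a median half-width of 0.33. POLR1C was at 83.9 and 81.6 RPKM in Blimp1-deficient pre-plasmablasts, against 86.6 and 93.4 RPKM in activated B cells (-0.12, interval -0.35 to 0.12). With the series block 7 members were higher (14.6%, against 22.1% of all genes) and 3 lower (6.25%, against 20.6%), which were UBTF (-0.29), GAR1 (-0.35) and RRP1B (-0.25). POLR1A was the RNA polymerase I gene among the 7 (0.33, adjusted p = 0.00406 with the block), together with WDR12, NOP2, WDR3, NOB1, NOP14 and NOP10.

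Marker genes of other cells moved with these contrasts. The 7 B cell markers summed to 4117 to 4343 RPKM in Blimp1-deficient pre-plasmablasts, 3497 to 3669 RPKM in activated B cells, 2317 to 2477 RPKM in pre-plasmablasts and 1491 to 1610 RPKM in plasmablasts. Among these 7 is CD22, on which the Blimp1-deficient cells were gated. It was at 345 and 309 RPKM in those cells, against 28.5 and 38.3 RPKM in control pre-plasmablasts. Of 9 myeloid markers 3 were in the files, and they summed to 31.7 to 35.8 RPKM in Blimp1-deficient pre-plasmablasts, 23.8 to 29.9 RPKM in activated B cells, 3.89 to 4.39 RPKM in pre-plasmablasts and 0.81 to 1.99 RPKM in plasmablasts. Of 7 markers of natural killer or dendritic cells 3 were in the files, with sums of 30.3 to 36.9 RPKM, 50.6 to 58.7 RPKM, 21.0 to 24.99 RPKM and 8.97 to 9.31 RPKM in the same groups. The 3 erythroid and megakaryocyte markers present, of 7, summed to 13.5 to 15.0 RPKM, 13.1 to 18.6 RPKM, 3.45 to 4.21 RPKM and 2.15 to 2.36 RPKM, and the 2 T cell markers present, of 7, to at most 8.01 RPKM. No marker present was at 0 in both libraries of any of these groups, and the part of the markers in the results was not tested. In bulk samples fewer cells of a type and less RNA per cell cannot be told apart.

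**Figure D3:**
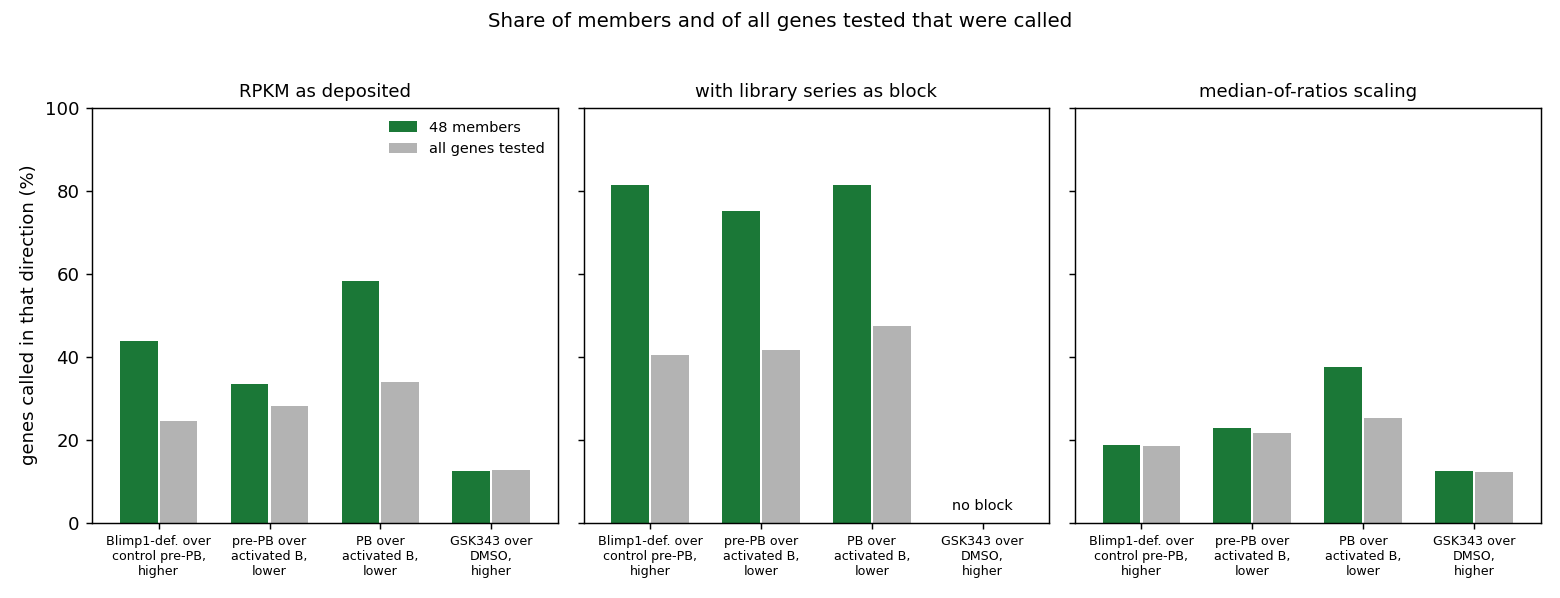
Percentage of genes called in the direction named (vertical axis) among the 48 members (green) and all genes tested (grey), with RPKM as deposited, with the library series as a block and with median-of-ratios scaling. In plasmablasts over activated B cells the members exceed all genes in each panel, at 58.3%, 81.3% and 37.5%, and under GSK343 both shares lie at 12.3% to 12.7%.

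The other genes of the pathway were counted by lists. In Blimp1-deficient over control pre-plasmablasts, 5 of 30 further small-subunit factors, 12 of 36 further large-subunit factors and 4 of 14 further RNA polymerase I factors were higher and none lower, beside the 24.4% of all genes called higher. Of 20 RNA polymerase III genes 5 were higher, and of 15 RNA exosome genes, which trim rRNA, 3 were higher and 1 lower. With the series block 18, 25, 9, 9 and 5 genes of these 5 lists were higher, beside 40.4% of all genes. Lower with the block were 3, 2, 1, 0 and 2, beside 24.9%. With median-of-ratios scaling the counts of these 5 lists became 3, 6, 2, 4 and 3 higher, beside 18.5% of all genes, and 2 large-subunit factors and 1 exosome gene were lower. POLR1D, a subunit shared by RNA polymerases I and III, was at 101 and 87.4 RPKM in Blimp1-deficient cells, against 56.6 and 52.6 RPKM in control cells (0.78 ± 0.11, adjusted p = 0.00181). EXOSC5, an exosome ring protein, was at 89.5 and 79.9 RPKM in Blimp1-deficient cells, against 41.1 and 43.0 RPKM in control cells (0.99 ± 0.09, adjusted p = 0.000328). In plasmablasts over activated B cells the same lists had 14, 17, 5, 8 and 8 genes lower and 1 gene higher each. Of all genes tested there, 33.9% were lower and 21.3% higher. With the series block the lists had 18, 26, 11, 11 and 11 lower, beside 47.4% of all genes. Higher with the block were 6, 1, 1, 3 and 1, beside 28.0%. With median-of-ratios scaling the lists had 9, 10, 3, 6 and 3 lower and 4, 2, 1, 5 and 1 higher. The shares of all genes were then 25.1% lower and 26.5% higher. RRP7A, of the small-subunit processome, was at 19.2 and 17.8 RPKM in plasmablasts, against 36.4 and 35.3 RPKM in activated B cells (-0.92 ± 0.09, adjusted p = 0.000188). MDN1, the giant ATPase of 60S maturation, was at 6.32 and 7.55 RPKM in plasmablasts, against 14.1 and 13.9 RPKM in activated B cells (-0.92 ± 0.12, adjusted p = 0.000681).

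TOP1, the topoisomerase that relieves supercoils ahead of polymerases, went the other way. It was at 181 and 204 RPKM in plasmablasts, against 50.5 and 65.2 RPKM in activated B cells (1.73 ± 0.16, adjusted p = 0.000191). It was also higher in Blimp1-deficient pre-plasmablasts, at 224 and 257 RPKM, than in activated B cells (2.05 ± 0.16, adjusted p = 0.000746).

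MYC was followed beside the members because many of them are among its known targets. It was at 77.7 and 69.4 RPKM in plasmablasts, against 68.0 and 89.98 RPKM in activated B cells, with overlapping groups and no call (-0.09 ± 0.14, adjusted p = 0.621). It was at 119.7 and 124.9 RPKM in Blimp1-deficient pre-plasmablasts, against 76.7 and 71.7 RPKM in control pre-plasmablasts (0.71 ± 0.14, adjusted p = 0.00819). It was higher in the deficient cells than in activated B cells too (0.64 ± 0.14, adjusted p = 0.0255), where no member was called. Of 18 proliferation genes, 1 was higher and 4 lower in Blimp1-deficient over control pre-plasmablasts, beside 24.4% of all genes higher and 16.1% lower. Among the 4 was MCM2, of the replicative helicase. It was at 40.9 and 39.7 RPKM in Blimp1-deficient cells, against 58.3 and 56.97 RPKM in control cells (-0.50 ± 0.08, adjusted p = 0.00262). With the series block 3 of the 18 were higher and 7 lower in this contrast, beside 40.4% and 24.9% of all genes. In plasmablasts over activated B cells 9 of the 18 were lower and 1 higher, beside 33.9% of all genes lower and 21.3% higher. With the block 13 were lower and 2 higher there, beside 47.4% and 28.0%. All 16 secretory genes, which serve antibody export, were higher in plasmablasts than in activated B cells and lower in Blimp1-deficient than in control pre-plasmablasts.

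With GSK343 MYC was higher, and the share of members called higher was close to that of all genes. MYC was at 43.6 and 37.3 RPKM with GSK343, against 15.3 and 16.2 RPKM with DMSO (1.30 ± 0.10, adjusted p = 1.39e-05). Of the 48 members 6 were called higher (12.5%) and none lower, against 12.7% of all genes tested called higher and 5.86% lower. Libraries of the groups did not overlap for 22 members that were higher (45.8%, against 33.7% of all genes) and for 1 that was lower (2.08%, against 25.6%). The median was 0.11 for members and 0.02 for all genes. Every member's 95% interval lay within 1 log2 unit of 0, the highest bound being 0.82. The called genes were NOL6, RRP12, RRP9, POLR1B, RRS1 and NOP2, with log2 fold changes of 0.36 to 0.51. The call of POLR1B was lost when any 1 of the 4 libraries was left out (adjusted p of 0.0557 to 0.175) and with no filter on low values (0.0693).

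NOL6 was at 18.8 and 16.9 RPKM with GSK343, against 11.4 and 13.2 RPKM with DMSO (0.51 ± 0.11, adjusted p = 0.00958). RRP12 was at 8.79 and 7.45 RPKM with GSK343, against 5.86 and 5.24 RPKM with DMSO (0.47 ± 0.13, adjusted p = 0.0252). RRP9 was at 26.8 and 29.6 RPKM with GSK343, against 20.4 and 20.8 RPKM with DMSO (0.44 ± 0.09, adjusted p = 0.00846). In all 3 the groups were apart. Leaving out the first GSK343 library ended the calls of NOL6 (adjusted p = 0.0996) and RRP12 (0.176), leaving out the second DMSO library or the filter on low values also ended that of RRP12 (0.0837 and 0.0864), and leaving out the second GSK343 library ended that of RRP9 (0.104). POLR1C was the member with lower values in both GSK343 libraries than in both DMSO libraries, at 69.6 and 61.8 RPKM with GSK343, against 76.2 and 81.7 RPKM with DMSO (-0.26 ± 0.09, adjusted p = 0.06), and was called lower with median-of-ratios scaling (adjusted p = 0.0414). The counts turned on single libraries. Without the first DMSO library 3 members were higher (6.25%, against 13.0% of all genes) and 4 lower (8.33%, against 7.73%). Without the second 10 were higher (20.8%, against 12.2%), and without the first or the second GSK343 library 1 and 2 were higher (2.08% and 4.17%, against 5.87% and 6.03%). Of the other lists, 1 of 30 small-subunit factors (RCL1, 0.47) and 1 of 35 large-subunit factors tested (PPAN, 0.37) were higher, and 1 of 14 further RNA polymerase I factors (ZNRD1, -0.30) was lower. Plasma cell and plasmablast markers, 8 in these files, summed to 3958 to 4271 RPKM with GSK343 and 4581 to 4841 RPKM with DMSO, with 2 called higher and 2 lower. SDC1 was at 7.27 and 8.75 RPKM with GSK343, against 3.01 and 2.57 RPKM with DMSO (1.25 ± 0.14, adjusted p = 0.000139), and TNFRSF17, a receptor of plasma cells, was also higher (0.89 ± 0.14, adjusted p = 0.00105). B cell markers summed to 3011 to 3374 RPKM with GSK343 and 3447 to 3629 RPKM with DMSO. CAR2, a carbonic anhydrase on the erythroid list, was at 17.4 and 17.3 RPKM with GSK343, against 7.91 and 9.07 RPKM with DMSO (0.96 ± 0.11, adjusted p = 0.000184). T cell markers, 7 in these files, summed to 11.3 to 13.5 RPKM with GSK343 and 2.64 to 3.42 RPKM with DMSO. Myeloid markers, 8 of 9 in these files, summed to 5.52 to 5.9 RPKM with GSK343 and 3.77 to 4.18 RPKM with DMSO. Markers of natural killer or dendritic cells summed to 14.7 to 15.1 RPKM with GSK343 and 18.5 to 20.04 RPKM with DMSO. CD3E and NCR1 were at 0 in libraries of both groups, and CD8A, KLRB1C, CSF1R and S100A8 in libraries with DMSO. Their part in the results was not tested.

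**Figure D4:**
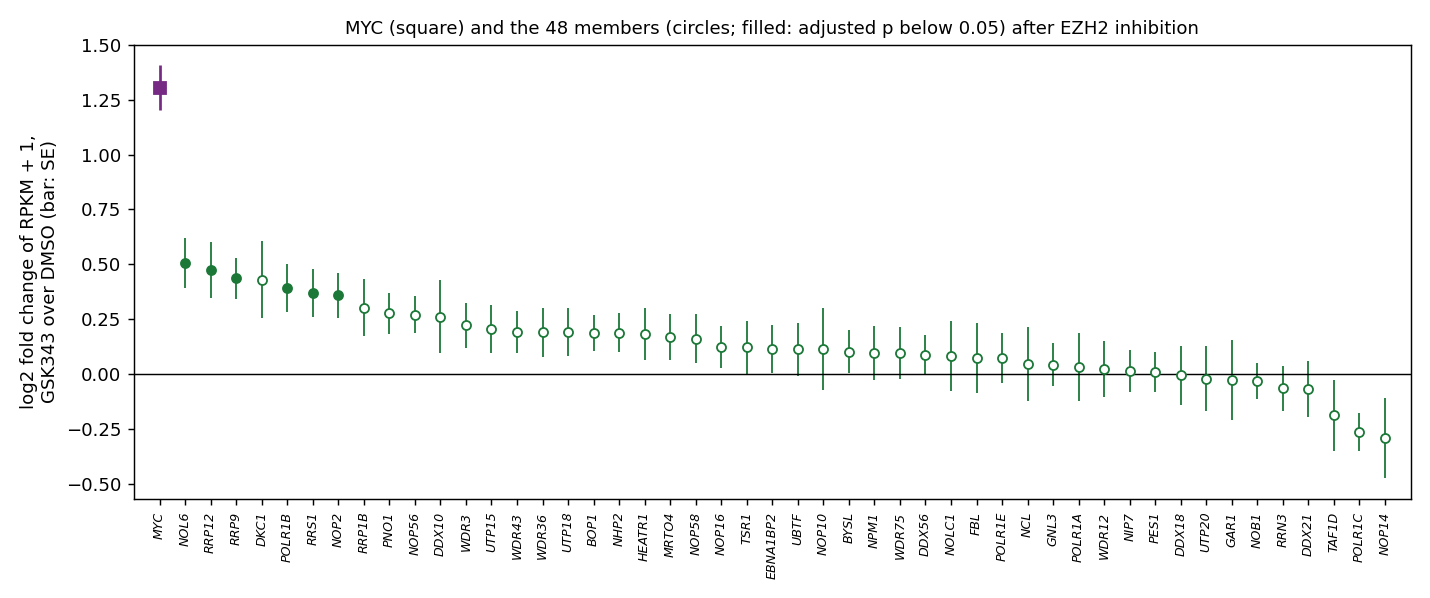
Log2 fold change of RPKM + 1 with its standard error (vertical axis) in GSK343 over DMSO pre-plasmablasts for MYC (square) and the 48 members (circles, filled where called), sorted by size. MYC stands at 1.30 and the highest member, NOL6, at 0.51.

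In ex vivo plasma cells the median member ranked lower among all genes than in any of the 6 cultured groups. Plasma cell files were normalized apart, so no test was made and percentile ranks among the 11166 symbols shared by all files are given. Files of the main groups were GC-normalized, and those of plasma cells and of the inhibitor experiment were not. How far this moved ranks and levels was not tested. The median member stood at percentile 59.1 in plasma cells, against 78.3 in Blimp1-deficient pre-plasmablasts, 77.3 in activated B cells, 73.5 in pre-plasmablasts, 69.6 in plasmablasts, 67.2 in GSK343 and 65.6 in DMSO pre-plasmablasts. Summed over the 48 members, the RPKM was 805.8 and 873.6 in plasma cells, 2416 and 2393 in Blimp1-deficient pre-plasmablasts, 2269 and 2424 in activated B cells, 1696 and 1802 in pre-plasmablasts, 1479 and 1533 in plasmablasts, 1318 and 1341 with GSK343 and 1118 and 1327 with DMSO. UBTF, in contrast, was at 57.6 and 57.9 RPKM in plasma cells, and BOP1 at 45.1 and 52.4 RPKM. Although the median member ranked lower in plasma cells than in DMSO pre-plasmablasts, several members ranked higher, among them UBTF, BOP1, NCL, NOLC1 and POLR1A. The lowest members in plasma cells were WDR12, at 1.19 and 1.77 RPKM, FBL, at 3.16 and 2.73 RPKM, and POLR1E, at 2.69 and 3.28 RPKM.

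Several values carry limits from the gene models. By the RefSeq table (GRCm38.p6), 12 members overlap another protein-coding gene: NOP56, DKC1, NHP2, BOP1, WDR12, WDR3, BYSL, GNL3, TSR1, EBNA1BP2, POLR1E and TAF1D. These values are less certain, since the sources used here do not say whether counting used strand. In all, 8 members hold snoRNA genes within them: NCL, NOP56, NOP58, DKC1, WDR43, GNL3, TSR1 and TAF1D.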

How the data were processed

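Of 38 samples, the 14 RNA libraries in 7 groups of 2 were used, and 24 others were not analysed here. The authors deposited RPKM values for each library, GC-normalized in 8 of them per the file names. The submitters' processing notes name the build mm9 and the tools SICER, DESeq 1.8.3, HTSeq 0.5.3 and TopHat 1.4.1, with no role. The authors' gene annotation is not given in the sources used here. Depth is unknown: at most 8.70% of low genes shared a common step between 2 GC-normalized libraries, while in the inhibitor files 27.9% to 33.0% did, at ratios of 0.825 to 1.2. Across the 14 libraries 9188 to 10077 genes reached 1 RPKM. Repeated gene names were dropped. In the plasma cell files 5 read-counter summary names were removed so that names and values line up, and EBNA1BP2 was read from a symbol that lacked the letters NA, as did all 352 such symbols there.

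Values were tested as log2(RPKM + 1) with limma 3.58.1 (lmFit, eBayes with trend, two-sided) in R 4.3.3, on genes that reached 1 RPKM in 2 or more libraries of the fit, with Benjamini-Hochberg adjustment. Fold changes on this scale understate those of low genes. The main groups shared 1 fit over 4 groups, without covariates. Their library numbers form 2 series, and deviations from the group means correlated at 0.67 to 0.78 between same-series libraries of different groups, so the series was taken as a pairing and used as a block in an alternative. What a series is, is not given. The labels do not tell whether both libraries of a group are separate animals or cultures, so p-values reflect only how far these samples differ, possibly for technical reasons. Alternatives were a pseudocount of 0.1, no filter, median-of-ratios scaling, the series block, only the groups compared and leaving out each library. The fit was tested on simulated data.

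Named were the 3 called members with the largest change in each direction per comparison, 10 fixed members, others called at 2-fold or more or moving against their role group, and up to 2 genes of each other list, with MYC. Genes of small groups named beyond this were chosen after their values were seen. The members and lists were chosen with earlier results of these data known. The sum of the erythroid and megakaryocyte markers is not reported here for the inhibitor experiment. Python 3.11.15, pandas 2.3.3 and matplotlib 3.10.9 were used.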

Additional observations from a re-analysis of the deposited data

How the results depend on the processing

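With a pseudocount of 0.1 and, except for GSK343, with no filter on low values, the counts of members stayed within 1.5 times those reported. With median-of-ratios scaling the members called were 2 higher in pre-plasmablasts over activated B cells, 18 lower in plasmablasts over activated B cells, 9 higher in Blimp1-deficient over control pre-plasmablasts and 1 lower with GSK343 over DMSO. With the library series as a block, a pairing, they were 2 higher and 36 lower in pre-plasmablasts over activated B cells, 15 lower in plasmablasts over pre-plasmablasts (2128 of all genes), 39 higher in Blimp1-deficient over control pre-plasmablasts (6829 of all genes), and 7 higher and 3 lower in Blimp1-deficient pre-plasmablasts over activated B cells (4477 of all genes). The block with median-of-ratios scaling was chosen after the data were seen. It gave 5 higher and 25 lower in pre-plasmablasts over activated B cells (33.9% and 33.8% of all genes). For plasmablasts over pre-plasmablasts 12 were lower (9.49% of all genes, with 2104 called in all). For plasmablasts over activated B cells 5 were higher (10.4%, against 35.8% of all genes) and 32 lower (66.7%, against 36.0%). Blimp1-deficient over control pre-plasmablasts had 32 higher and 3 lower (31.9% and 30.7% of all genes, 6555 called in all). Blimp1-deficient pre-plasmablasts over activated B cells had 11 higher and 3 lower (23.2% and 18.8% of all genes, 4394 called in all). With block and scaling together BOP1 was higher in plasmablasts than in activated B cells, at 0.15, against -0.04 as reported. With scaling alone it also lay at 0.15, without a call (adjusted p = 0.192). In fits of only the groups compared, 9 members were higher and 0 lower in Blimp1-deficient over control pre-plasmablasts, 1 gene in all was called in plasmablasts over pre-plasmablasts, and 1200 in Blimp1-deficient pre-plasmablasts over activated B cells. With no filter, 2 members were higher with GSK343.

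Leaving out 1 library at a time gave 8 to 15 members lower and 0 to 2 higher in pre-plasmablasts over activated B cells (3650 to 4827 of all genes), 17 to 28 lower and 1 higher in plasmablasts over activated B cells (4516 to 5634), 0 in plasmablasts over pre-plasmablasts (23 to 149), 5 to 18 higher and 0 to 1 lower in Blimp1-deficient over control pre-plasmablasts (2916 to 3870), 0 in Blimp1-deficient pre-plasmablasts over activated B cells (719 to 1611), and 1 to 10 higher and 0 to 4 lower with GSK343 (747 to 1955). In these fits a lone library is assumed to vary like the other groups. No paired analysis was possible for GSK343 because its libraries carry no shared numbers. For the 10 fixed members and the called members with the largest changes, each member was counted once under each alternative. So counted, 30 called values in Blimp1-deficient over control pre-plasmablasts and 24 in plasmablasts over activated B cells kept their direction but lost the call. The same held for 16 in pre-plasmablasts over activated B cells and 10 with GSK343. One member can enter several times, and calls lost by other members are not in these counts.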

Other observations

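Levels of the members differed between the DMSO pre-plasmablasts of the inhibitor experiment and the control pre-plasmablasts of the main experiment, whose files were normalized apart, so no test was made. Per member, the mean RPKM with DMSO was from 0.13 times (NOLC1) and 0.15 times (NCL) to 2.06 times (NOP10) and 2.07 times (NHP2) that of the control pre-plasmablasts. NCL was at 15.9 and 23.7 RPKM with DMSO, against 139.9 and 124.6 RPKM in control pre-plasmablasts, and in plasma cells, from files deposited without GC normalization as well, it was at 49.9 and 49.3 RPKM. With plasma cell names left as deposited, the median percentile of the members there was 56.5.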
